A study of Homo sapiens with 36 samples.

Results

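Windows on small structured RNAs and on the flanks of microRNA hairpins were examined in eCLIP data for 9 proteins. The cells were HEK293T, an established line derived from human embryonic kidney. Each protein has a table of genomic windows of at most 100 nt that the authors called enriched in the immunoprecipitate (IP) over the matched input in both replicates. A window was taken as a member where its leading annotation was EXON_SMALL (the body of a small RNA) or PRIMIRNA in any of the 9 tables, and the tables were united by window name. This gave 420 of 601384 distinct windows. Of these, 219 were EXON_SMALL windows in 165 genes, and 201 were PRIMIRNA windows in 49 genes. The 9 tables hold 638 entries for the 420 windows, because a window can be listed for several proteins.

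The study followed up candidates from a screen, made by tethering proteins to RNA, for effects on where transcripts are cleaved and polyadenylated. Per the labels, each protein had 2 IP and 2 input libraries, which makes 36 libraries in 18 groups of 2, all from HEK293T cells with no treatment. The proteins were CPSF5, CPSF6, EIF4B, GRB2, LGALS3, MBNL2, RBM10, RBM22 and RNPS1. RNA was cut with RNase I, and the antibody bound either the native protein or a V5 tag; the labels do not say which was used for which protein. Whether the 2 replicates of a group came from different dishes is not stated, so differences between them may be technical. The tables hold no expression levels against which the cell line could be checked.

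Most small nuclear RNAs are parts of the spliceosome: U1 and U2 pair with the 5' splice site and the branch point, and U6 pairs with U2 and the 5' splice site in the catalytic centre. 7SK RNA holds the elongation factor P-TEFb inactive, small nucleolar RNAs (snoRNAs) guide modification or processing of ribosomal RNA, and small Cajal body RNAs (scaRNAs) guide modification of spliceosomal RNAs. A microRNA starts as a hairpin within a long primary transcript. The Drosha complex cuts the hairpin out, Dicer trims it to a duplex, and the seed of the mature strand, its bases 2 to 8, pairs with target mRNAs. Cleavage factor Im, which binds upstream of poly(A) sites, is built from CPSF5 and a partner such as CPSF6. RBM22 contacts U6 in the active spliceosome, RBM10 regulates splicing, RNPS1 is an exon junction complex partner, MBNL2 is a muscleblind splicing regulator and EIF4B assists the EIF4A helicase in translation initiation. GRB2 links receptors to Ras signalling, and LGALS3 (galectin-3) binds galactosides.

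The microRNAs on which the CPSF5 results turn are shown first, grouped by shared seed, with the seed in capitals. The sequences are from RefSeq (GRCh38.p14), written 5' to 3'. Of 65 microRNA genes with a member window, 64 were found in RefSeq, 59 with a mature sequence.
let-7i-5p: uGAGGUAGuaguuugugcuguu
miR-98-5p: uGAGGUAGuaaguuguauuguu
miR-301a-3p: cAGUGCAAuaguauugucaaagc
miR-130b-3p: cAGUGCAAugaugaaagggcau
miR-16-5p: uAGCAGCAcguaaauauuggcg
miR-15b-5p: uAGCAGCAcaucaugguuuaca
miR-93-5p: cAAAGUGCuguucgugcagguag
miR-106b-5p: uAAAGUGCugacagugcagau
The shared seeds join loci on different chromosomes, except that miR-93 and miR-106b come from the same intron of MCM7. The seed of miR-301a and miR-130b recurs in miR-3666, whose locus was listed for CPSF6.

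The microRNAs below share no seed with these or with each other. They are shown because GRB2, EIF4B, CPSF6 and RNPS1 values at their loci are given in the text.
miR-548u: cAAAGACUgcaauuacuuuugcg
miR-573: cUGAAGUGauguguaacugaucag
miR-3613-5p: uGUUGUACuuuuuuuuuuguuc
miR-4442: gCCGGACAagagggagg
miR-4292: cCCCUGGGccggccuugg
miR-941: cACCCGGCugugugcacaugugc
miR-3176: aCUGGCCUgggacuaccgg

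The hairpins of the let-7i and miR-301a loci are printed with both mature arms in capitals. In the tables these hairpins are EXON_SMALL windows, and the PRIMIRNA windows begin at the next base on either side.
let-7i hairpin: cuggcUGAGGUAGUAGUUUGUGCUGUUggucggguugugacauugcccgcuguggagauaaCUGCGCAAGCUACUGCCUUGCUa
miR-301a hairpin: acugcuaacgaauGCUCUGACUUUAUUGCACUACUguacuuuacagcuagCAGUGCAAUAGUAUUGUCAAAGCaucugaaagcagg
They lie at chromosome 12, 62603686 to 62603769 on the plus strand, and at chromosome 17, 59151136 to 59151221 on the minus strand (GRCh38.p14). Sequences of the snRNAs, snoRNAs and 7SK were not used here.

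The values below are the authors' own. Reads per window were summed over the 2 replicates before deposit, so the counts of single libraries were not used here and no test over samples was possible. The enrichment is a log2 odds ratio of IP over input by its column name, given as a lower and a higher replicate value. It is used to describe and rank windows within a table, and unless stated a single value is that of the lower replicate. Raw IP and input reads are not scaled to each other, so a window can be enriched with fewer IP than input reads. Total library depth is unknown. The tables hold between 187076 (LGALS3) and 13313477 (GRB2) IP reads in listed windows, and a window missing from a table was either not enriched or not covered. Intervals on shares are exact binomial 95% intervals that cover counting error only, and neighbouring windows are not independent. snRNA, 7SK and U3 genes have many near-identical copies and pseudogenes, so the split of reads between copies is uncertain.

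EXON_SMALL windows made up a small share of every table. RNPS1 had 69 of them, RBM22 54, CPSF5 and CPSF6 51 each, EIF4B 48, RBM10 46, MBNL2 25, LGALS3 16 and GRB2 12. As a share of the whole table this was 1.60% for LGALS3 (0.915 to 2.58) and 0.623% for RBM22 (0.468 to 0.812). It was 0.161% for RBM10 (0.118 to 0.215), 0.131% for CPSF5 (0.0978 to 0.173) and 0.0699% for EIF4B (0.0515 to 0.0926). MBNL2 had 0.0582%, RNPS1 0.0452%, CPSF6 0.0328% and GRB2 0.00412% (0.00213 to 0.00720).

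Set against how often any listed window was in the same table, the small-RNA windows were distributed unevenly. Of the 601384 distinct windows behind this background, 285555 were listed for GRB2 only, which lowers it for every other protein. Backgrounds without those windows were not computed. They would be higher for every protein but GRB2. A share near or modestly above its background here may therefore lie at or below one without those windows. RBM22 held 24.7% of the 219 small-RNA windows and 1.44% of all distinct windows, and RBM10 21.0% against 4.75%. LGALS3 held 7.31% against 0.167%, CPSF5 23.3% against 6.46%, EIF4B 21.9% against 11.4% and MBNL2 11.4% against 7.14%. The shares of RNPS1 (31.5% against 25.4%) and CPSF6 (23.3% against 25.9%) were near their background. GRB2 held 5.48% against 48.4%. These windows took a larger share of IP reads than of windows: 41.8% of the reads in LGALS3 windows, 17.3% for RBM22, 11.2% for RNPS1, 10.2% for CPSF6, 8.44% for EIF4B, 8.41% for RBM10, 2.69% for MBNL2, 2.07% for CPSF5 and 0.00683% for GRB2. The median input reads of small-RNA windows were also above those of the whole table for each protein, such as 1189.5 against 5 for EIF4B. Their median enrichment was below that of the whole table for LGALS3 (1.59 against 2.39), RBM22 (1.77 against 2.12) and RNPS1 (1.72 against 2.93). It was also below for CPSF6 (1.86 against 2.51), EIF4B (2.06 against 2.81), CPSF5 (2.48 against 2.81) and GRB2 (3.20 against 3.38). It was above for RBM10 (2.90 against 2.77) and MBNL2 (2.44 against 2.39). At the stricter threshold of q at most 0.05, 44 of the 54 RBM22 windows stayed listed, or 81.5% against 34.8% of all RBM22 windows. The shares were 71.7% against 31.5% for RBM10 (33 of 46), 84.0% against 54.6% for MBNL2 (21 of 25) and 43.8% against 27.5% for LGALS3 (7 of 16). They were nearer their background for CPSF5 (37 of 51, 72.5% against 63.0%), EIF4B (37 of 48, 77.1% against 69.7%), RNPS1 (46 of 69, 66.7% against 63.1%), CPSF6 (21 of 51, 41.2% against 49.7%) and GRB2 (6 of 12, against 50.9%).

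The classes of small RNA differed between the tables. 7SK genes were the most frequent class for CPSF5, RNPS1 and MBNL2, U6 the most frequent for RBM10 and RBM22, and mitochondrial ribosomal RNA the most frequent for EIF4B and CPSF6. scaRNAs had 9 windows for RBM22, 1 for EIF4B and none in the other tables.

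**Figure D1:**
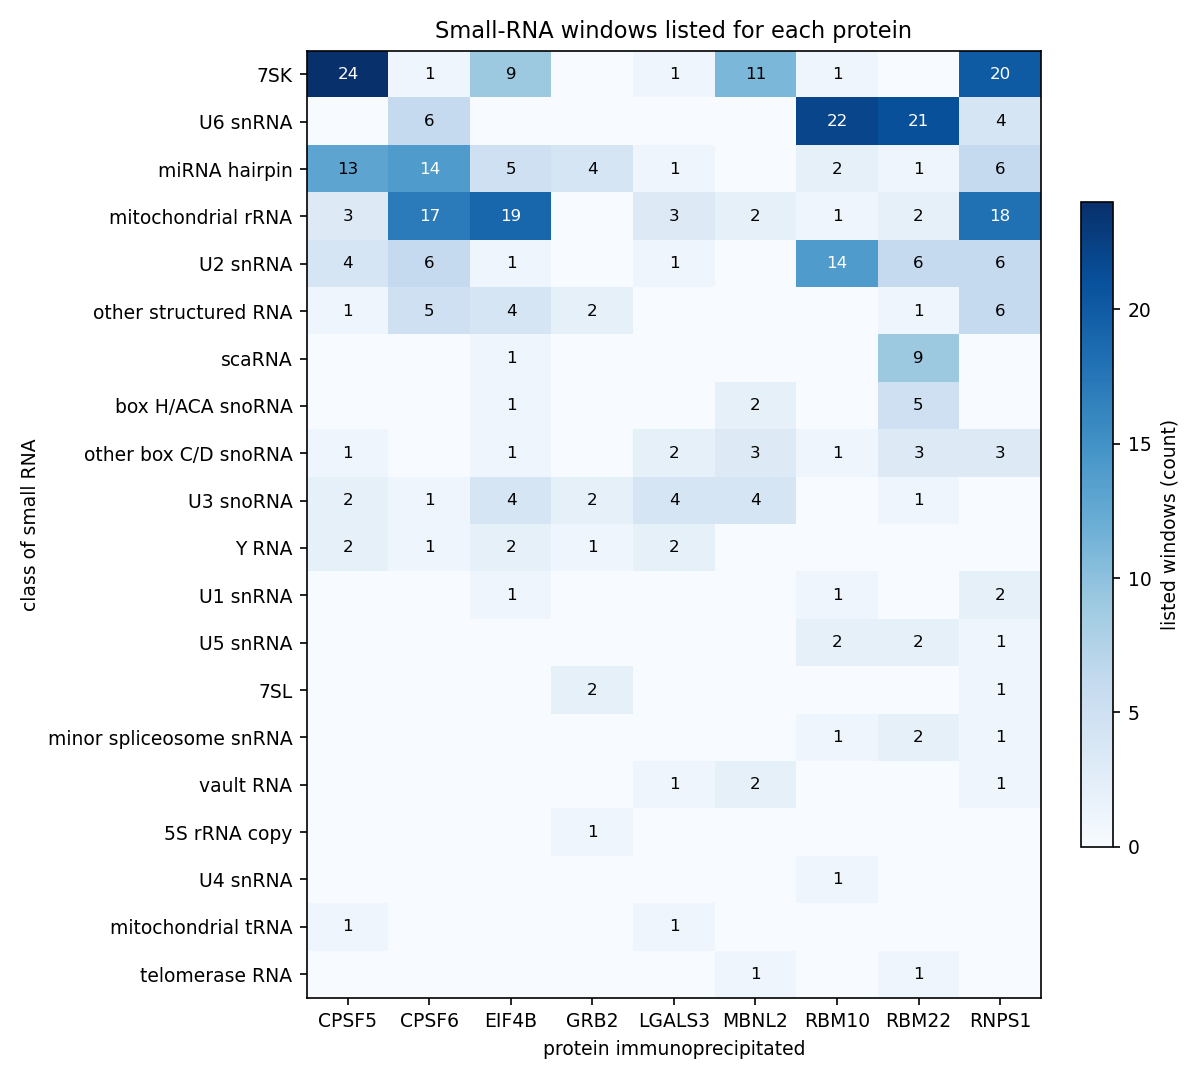
Number of EXON_SMALL windows listed for each of the 9 proteins (columns) in each class of small RNA (rows), with the colour and the printed number giving the count and blank cells meaning none. The largest cells are 24 7SK windows for CPSF5, 22 and 21 U6 windows for RBM10 and RBM22, and 20 7SK windows for RNPS1.

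U2 snRNA windows were listed for 7 proteins and were most numerous for RBM10, with 14 windows in 12 genes against 6 for each of CPSF6, RBM22 and RNPS1, 4 for CPSF5 and 1 each for EIF4B and LGALS3. They held 145070 IP reads, or 6.84% of all reads in RBM10 windows, and 43203 reads or 5.54% for RBM22. The RBM10 windows had a median log2 enrichment of 3.32, at the 68.1st percentile of all windows listed for that protein. The medians were 1.56 for RBM22 (17.7th percentile), 1.41 for RNPS1 (2.06th percentile) and 1.07 for CPSF6 (0.212th percentile).

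The genes RNU2-1 and RNU2-2P had the most U2 reads and moderate enrichment. RNU2-1 (chromosome 17, 43233882 to 43233977) had 36439 IP and 6670 input reads for RBM10, with log2 enrichments of 2.33 and 2.61 in the lower and higher replicate. For RBM22 it had 15163 and 10041 reads (1.40 and 1.53), for RNPS1 8438 and 7805 reads (1.14 and 1.46), and for CPSF6 11348 and 9382 reads (0.78 and 1.48). RNU2-2P, inside WDR74 on chromosome 11 (62841714 to 62841809), had 55238 IP and 8865 input reads for RBM10, enriched by 2.55 and 2.78. For RBM10 the replicates were close to each other at both genes.

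Several other U2 copies, most of them named as pseudogenes, had fewer reads and higher RBM10 enrichment. RNU2-4P (chromosome 17, 43387322 to 43387417) was listed for 6 proteins. It had 19447 IP and 424 input reads for RBM10, with enrichments of 5.56 and 5.74, and 3135 and 1209 reads for RBM22, with 1.86 and 2.73. For CPSF5 it had 3317 and 1061 reads (1.94 and 2.91), for RNPS1 444 and 424 reads (1.34 and 1.93), for CPSF6 1245 and 1145 reads (1.05 and 1.15), and for EIF4B 309 and 755 reads (0.85 and 1.02). RNU2-59P on chromosome 10 had 508 IP and 8 input reads for RBM10 (5.52 and 6.17), and RNU2-5P on chromosome 9 had 255 IP reads and 1 input read (5.69 and 8.55). RNU2-6P (chromosome 13, 46374496 to 46374590), also listed for 6 proteins, had RBM10 enrichments of 4.35 and 4.78 and RBM22 enrichments of 2.20 and 2.89. Another 5 copies were listed for RBM10 only, and of these RNU2-61P and RNU2-64P had both of their windows, with 1.62 to 3.34.

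U2 genes are covered by a pair of windows, and the listed one was nearly always that at the 5' end. This held for 12 of the 14 RBM10 windows, with 99.7% of the IP reads in listed U2 windows of that table. It also held for all 6 windows each of CPSF6, RBM22 and RNPS1. Reads of 3' windows that were not listed are not in that share, and input reads at the ends of U2 were not compared. The 5' part of U2 holds the branch point recognition sequence.

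U6 windows were listed for 4 proteins: 22 for RBM10, 21 for RBM22, 6 for CPSF6 and 4 for RNPS1. For RBM22 they ranked near the top, with a median log2 enrichment of 3.86 at the 93.8th percentile. The median was at the 58.7th percentile for RBM10, at the 27.5th for CPSF6 (2.09) and at the 5.45th for RNPS1 (1.62). RNU6-7 (chromosome 14, 32202045 to 32202097) was listed for all 4. Its 5' window had 17872 IP and 1223 input reads for RBM10 (enrichments 2.97 and 3.87), 14023 and 1652 reads for RBM22 (3.02 and 4.04), 5545 and 2038 reads for CPSF6 (1.41 and 2.36), and 3853 and 1136 reads for RNPS1 (2.35 and 2.36). Its 3' window had 751 IP reads for RBM10, 280 for RBM22 and 56 for RNPS1, so most IP reads lay at the 5' end. Input reads lay there too: 1223 of 1273 for RBM10, 1652 of 1712 for RBM22 and 1136 of 1158 for RNPS1. The lower-replicate enrichment of the 3' window was 3.13 for RBM10, 1.51 for RBM22 and 1.15 for RNPS1. It was thus above that of the 5' window for RBM10 and below it for RBM22 and RNPS1.

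The 5 small-RNA windows with the highest RBM22 enrichment were U6 copies. RNU6-49P (chromosome X, 37870109 to 37870161) had 505 IP and 3 input reads with enrichments of 6.69 and 7.63, and a copy named U6 on chromosome 1 (43716467 to 43716556) had 443 reads and 1 input read with 6.67 and 9.04. RNU6-658P, in GFM2, had 666 and 12 reads (6.26 and 6.62), RNU6-107P, in GIGYF2, 204 and 2 reads (5.70 and 6.76), and RNU6-890P, in UBR2, 273 reads and no input read (5.48 and 9.56). The replicates of RNU6-890P lay 4.08 log2 units apart, so the size of its enrichment is known only roughly. Among U6 windows, the highest for RBM10 was RNU6-826P, in IGF2BP1, with 224 IP and 2 input reads (4.87 and 6.35). RBM22 had 139 and 6 reads there (3.92 and 5.21).

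RBM10 and RBM22 shared 11 U6 windows, which is 50.0% of the RBM10 and 52.4% of the RBM22 U6 windows, and all 6 U2 windows of RBM22 were also RBM10 windows. Over all windows, the overlap of the tables was 5.27% of RBM10 and 17.3% of RBM22. The parts of U6 differed: 17 of 21 RBM22 windows lay at the 5' end and 2 at the 3' end, and for RBM10 12 lay at the 5' end and 9 at the 3' end. IP reads in listed windows were less even, with 87.9% of RBM22 and 89.5% of RBM10 U6 reads in 5' windows. The 5' window of RNU6-7 alone held 17872 of the 20483 RBM10 reads in 5' windows and 14023 of the 26037 RBM22 reads. These shares therefore rest largely on that gene. Of the 35 distinct U6 windows, 31 were on copies named as pseudogenes and 18 lay inside another gene, where reads of the host transcript cannot be told apart from those of the copy.

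**Figure D2:**
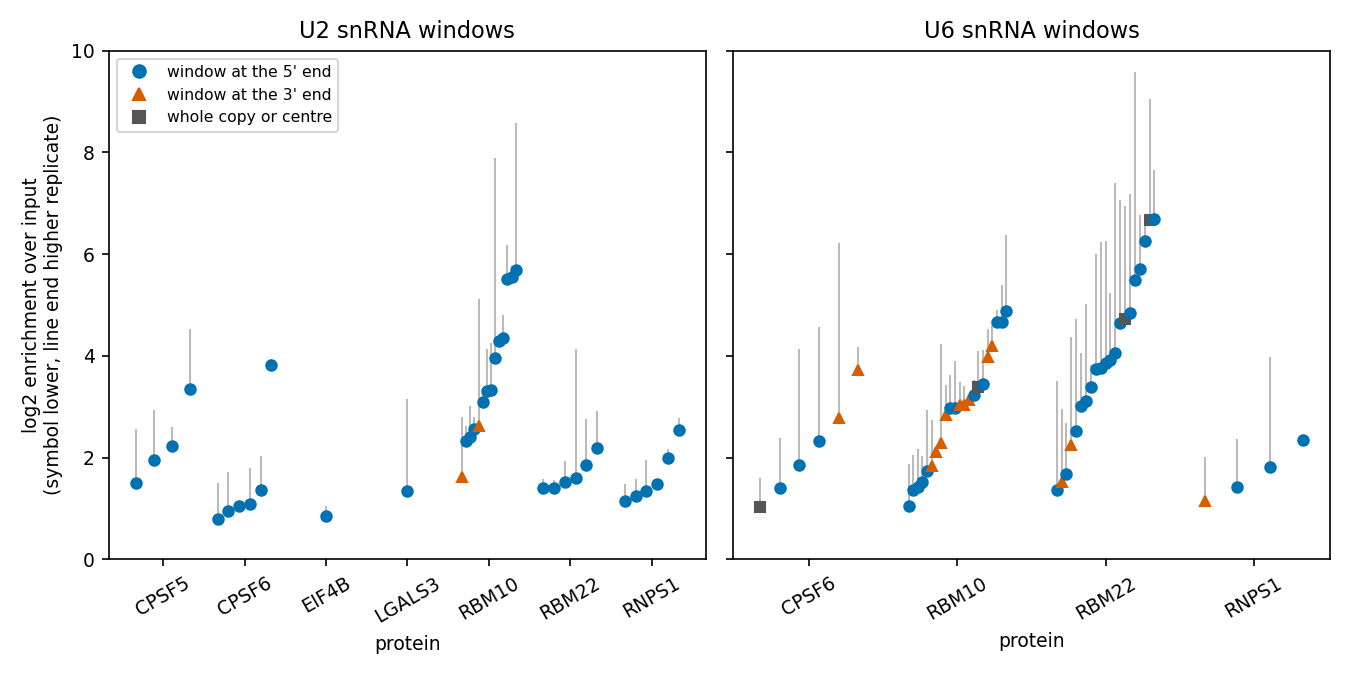
Log2 enrichment over input of each listed U2 (left) and U6 (right) window, by protein, with the symbol at the lower replicate, the grey line reaching to the higher replicate, and the symbol shape giving the part of the RNA. RBM10 reaches 5.69 on U2 and RBM22 reaches 6.69 on U6 in the lower replicate, and most symbols are circles, which mark windows at the 5' end.

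The other spliceosomal RNAs had few windows. U5 had 4, with RNU5D-1 listed for RBM22 (1439 IP and 418 input reads, 1.92 and 2.71), RNU5E-4P for RBM10 and RBM22, and RNU5E-1 for RNPS1 (0.72 and 1.41). U1 variants and copies had 4, of which RNU1-88P for RNPS1 held most reads (2272 IP and 1048 input reads, 1.16 and 1.44). A U4 copy, RNU4-78P, was listed for RBM10. Among the snRNAs of the minor spliceosome, which removes a rare intron class, RNU4ATAC was listed for RBM22 (0.84 and 2.14), RNU6ATAC for RNPS1 (0.74 and 1.07) and RNU6ATAC2P for RBM10 (1.93 and 2.21) and RBM22 (2.01 and 2.32). U7 snRNA and the RNase P and RNase MRP RNAs had no window in any table.

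7SK and its copies were the class with most windows, 50 in 35 genes. CPSF5 had 24, RNPS1 20, MBNL2 11, EIF4B 9, and CPSF6, LGALS3 and RBM10 1 each. The functional gene, RN7SK (chromosome 6), was listed for 3 proteins. RNPS1 had 3 windows there, with 28076, 51370 and 22657 IP reads and enrichments of 0.51, 1.63 and 1.37. EIF4B (19869 IP and 17221 input reads, 0.47 and 0.91) and MBNL2 (4396 and 7221 reads, 0.60 in both replicates) had only the last of the 3. These are low values, and the median of all RNPS1 7SK windows was at the 5.36th percentile.

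CPSF5 windows were on 7SK copies and not on RN7SK itself, and 23 of the 24 lay toward the 5' end of the copy. Their enrichment ranged from 1.35 to 3.75 with a median of 2.23, at the 25.7th percentile of the table. RN7SKP119 had the highest value (93 IP and 6 input reads, 3.75 and 4.93), and RN7SKP176 the most reads (4539 and 757, 1.86 and 3.28). MBNL2 windows lay instead toward the 3' end in 8 of 11 cases, with RN7SKP170 highest (12 IP reads and no input read, 4.38 and 4.55). At RN7SKP119, RN7SKP133, RN7SKP170 and RN7SKP69 the CPSF5 window was at the 5' end and the MBNL2 window at the 3' end of the same copy. RN7SKP255 on chromosome 14 was listed for 4 proteins, and its 5' window had 11846 IP reads for EIF4B (1.73), 10881 for RNPS1 (2.54), 6109 for MBNL2 (2.37) and 3061 for LGALS3 (1.19). 7SL, the RNA of the signal recognition particle, had 3 windows on copies only, with 10 to 18 IP reads each.

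Mitochondrial ribosomal RNA held most small-RNA reads in several tables: 861383 of the 909242 IP reads for CPSF6, 757578 of 989935 for RNPS1 and 690951 of 793728 for EIF4B. A window of 12S rRNA (MT-RNR1, 674 to 770 of the mitochondrial genome) was listed for 8 proteins, more than any other member, and was missing for GRB2 only. Its enrichments were 3.90 and 3.91 for MBNL2 (10288 IP and 3117 input reads), 3.76 and 4.27 for RNPS1 (41987 and 3303), 2.51 and 3.50 for CPSF6 (20083 and 3393) and 2.23 in both replicates for EIF4B (5384 and 2578). It was 1.55 and 1.97 for LGALS3, 1.22 and 2.41 for RBM10, 0.90 and 0.98 for RBM22 and 0.87 and 1.15 for CPSF5. The median percentile of mitochondrial rRNA windows was 81.7 for MBNL2 with 2 windows, 23.2 for EIF4B, 5.91 for RNPS1, 4.59 for CPSF6 and 0.00773 for CPSF5, so for CPSF5 these are among the least enriched windows listed.

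The 16S rRNA (MT-RNR2) was listed along most of its length for EIF4B, CPSF6 and RNPS1. Values peaked at the same last listed window (3012 to 3109) for CPSF6 and RNPS1, with 3.42 and 4.08 for CPSF6 (77796 IP and 8342 input reads) and 3.83 and 3.96 for RNPS1 (85261 and 8051). For EIF4B the window at 2720 to 2816 was highest, with 3.85 and 4.32 (41191 and 8447 reads), and the last listed window had 3.62 and 4.09. CPSF6 had a second maximum at the same window as EIF4B, with 2.71 and 3.42. The IP reads of these 3 proteins varied from 4754 to 121593 between windows. LGALS3 and RBM22 had only that last listed window, with 1.52 and 0.78, and CPSF5 the window before it, with 0.95. Among mitochondrial tRNAs, the histidine tRNA MT-TH was listed for CPSF5 (1577 IP and 854 input reads, 1.47 and 1.84) and LGALS3 (1059 and 689 reads, 1.23 and 2.53).

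**Figure D3:**
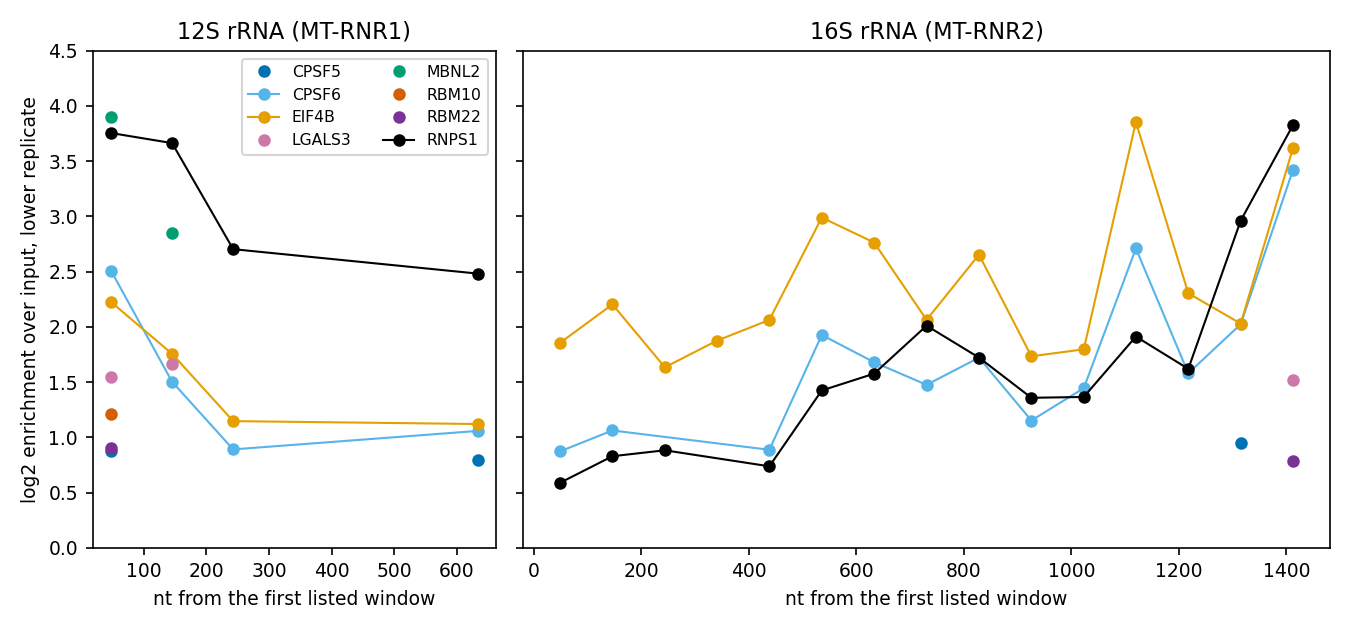
Lower-replicate log2 enrichment over input of listed windows along the mitochondrial 12S (left) and 16S (right) rRNA against the distance in nt from the first listed window, with each colour a protein and lines joining the windows of CPSF6, EIF4B and RNPS1. The 3 joined proteins end high at the last listed 16S window, between 3.42 and 3.83, and CPSF5, LGALS3 and RBM22 stay at or below 1.66 throughout.

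U3, the snoRNA needed for early cleavage of the ribosomal RNA precursor, was listed at 5' windows of SNORD3A, SNORD3B-1, SNORD3C and SNORD3D for EIF4B, LGALS3 and MBNL2. For MBNL2 these 4 windows had log2 enrichments of 3.35 to 3.97 with a median of 3.74, at the 90.7th percentile, and the replicates were close, as at SNORD3A (31007 IP and 14407 input reads, 3.68 and 3.69). EIF4B had 52999 and 40324 reads at SNORD3A (1.86 and 2.08), and LGALS3 24476 and 14513 (1.53 and 1.93). U3 windows held 18.4% of all reads in LGALS3 windows. At SNORD3B-1, RBM22 was also listed with replicates far apart (0.61 and 2.98), and CPSF5 with 0.83 and 1.00. GRB2 was listed at both windows of a U3 copy on chromosome 17 (58631641 to 58631836), the stronger with 451 IP and 23 input reads (3.22 and 4.14). SNORD3E was listed for CPSF5 only (62 IP reads and 1 input read, 4.44 and 6.81).

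LGALS3 had several short cytoplasmic and nucleolar RNAs. RNY1 (chromosome 7, 148987192 to 148987248), a Y RNA bound by Ro60, had its highest small-RNA value, with 1258 IP and 265 input reads and enrichments of 2.87 and 2.98. RNY3 had 573 and 200 reads (1.94 and 2.08). EIF4B was also listed at RNY1 (1073 and 778 reads, 1.74 and 1.93). SNORD13 (U13) was listed for LGALS3 (941 and 305 reads, 1.96 and 4.04), MBNL2 (2.18 and 3.64) and RNPS1 (1.04 and 1.22). SNORD118 (U8), in TMEM107, was listed for LGALS3 (5829 and 1922 reads, 1.94 and 2.20) and MBNL2 (2837 and 3102 reads, 1.39 and 1.87). The vault RNA VTRNA1-1 was listed for LGALS3 (1.21 and 2.44), MBNL2 (1.27 and 1.70) and RNPS1 (0.68 and 1.47), and VTRNA1-2 for MBNL2 with 1834 and 364 reads (2.79 and 3.01). LGALS3 and MBNL2 shared 10 small-RNA windows, of 16 for LGALS3 (62.5%) and 25 for MBNL2, and over all windows these tables shared 55.7% of LGALS3 and 1.30% of MBNL2.

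RBM22 was listed at all 9 scaRNA windows, in 7 genes, with enrichments of 0.62 to 1.80. SCARNA2 had the highest, with 9446 IP and 1165 input reads (1.80 and 2.59), followed by SCARNA6 in ATG16L1 (329 and 81 reads, 1.61 and 2.33), SCARNA5 in the same host (440 and 122 reads, 1.28 and 2.60) and SCARNA21 in CHD3 (1.23 and 1.57). EIF4B was listed at SCARNA6 too (1.08 and 1.11). Their median was at the 2.66th percentile of all RBM22 windows. RBM22 also had 5 of the 8 box H/ACA snoRNA windows, at SNORA12, SNORA31, SNORA74B and SNORA79, with enrichments of 0.88 to 1.73, and 3 windows of other box C/D snoRNAs, of which SNORD90, in RC3H2, was highest (2.61 and 3.57). Telomerase RNA (TERC), the template of telomere synthesis, was listed for RBM22 (753 and 235 reads, 1.42 and 1.84) and MBNL2 (215 and 91 reads, 2.55 and 2.57). Structured RNAs without a symbol of their own had 11 windows in 7 genes. Entries within JPX and DLEU1 had 2 windows each listed for CPSF6, EIF4B and RNPS1, the highest with 4.18 and 4.21 for EIF4B in JPX. GRB2 had 2 windows on such an entry in SMAD5 (3.72 and 2.65 in the lower replicate) and 1 on a 5S rRNA copy in MATR3 (2.66 and 2.81).

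MicroRNA hairpins accounted for 32 EXON_SMALL windows in 29 genes. CPSF6 had 14, CPSF5 13, RNPS1 6, EIF4B 5, GRB2 4, RBM10 2, and LGALS3 and RBM22 1 each. The CPSF5 hairpin windows had a median log2 enrichment of 4.17, against 2.41 for CPSF6. These lie at percentile 84.2 of all CPSF5 and percentile 44.6 of all CPSF6 windows. The highest CPSF5 value was the miR-16-1 hairpin in DLEU2 (chromosome 13, 50048973 to 50049061), with 101 IP reads and 1 input read (5.72 and 7.33). CPSF6 had 19 and 3 reads there (2.47 and 3.17).

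At the miR-106b-25 cluster in MCM7, CPSF5 was listed at all 3 hairpins, with 97 reads at miR-25 (5.11 and 6.55), 225 at miR-93 (3.94 and 5.36) and 165 at miR-106b (4.87 and 6.97). CPSF6 was listed at miR-25 only (2.68 in both replicates). Both windows of the miR-221 hairpin were listed for CPSF5 (4.59 and 2.96) and CPSF6 (2.63 and 3.72). Outside these tables the highest hairpin values were miR-6807 in TRIM28 for RNPS1 (162 IP reads and 1 input read, 5.09 and 7.57), miR-4442 in TOP2B for EIF4B (345 and 7 reads, 4.59 and 4.93) and miR-562 for GRB2 (23 reads and none in the input, 4.28 and 4.38). The miR-3609 hairpin in TRRAP was listed for 4 proteins: EIF4B (2.42 and 2.86), RBM22 (2.16 and 3.44), CPSF5 (1.85 and 3.14) and LGALS3 (1.75 and 2.35).

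PRIMIRNA windows were most numerous for CPSF5 with 78, GRB2 with 63, CPSF6 with 58 and RNPS1 with 30. EIF4B had 17, RBM10 14, MBNL2 and RBM22 3 each, and LGALS3 none. For LGALS3, 3 counts of its 1002 windows would be 0.299%, and the exact interval of the 0 reaches 0.367%. CPSF5 held 38.8% of the 201 windows, against 6.46% of all distinct windows, and the microRNA flanks made up 0.201% of its table (0.159 to 0.251). The shares for CPSF6 (28.9% against 25.9%), EIF4B (8.46% against 11.4%), RBM10 (6.97% against 4.75%) and RBM22 (1.49% against 1.44%) were near the background. Those for GRB2 (31.3% against 48.4%), RNPS1 (14.9% against 25.4%) and MBNL2 (1.49% against 7.14%) were below it. The windows listed for GRB2 only enter these backgrounds too, so near, below and above hold here only against backgrounds that include them. These directions rest on the leading annotation. With the type taken from any annotation of a window, 465 windows counted, and CPSF6 had 156 of them, RNPS1 150, CPSF5 142, EIF4B 96, GRB2 81, MBNL2 54, RBM10 44, RBM22 13 and LGALS3 4. The shares of RNPS1 (32.3%), EIF4B (20.6%) and MBNL2 (11.6%) were then above the same backgrounds, those of CPSF5 (30.5%), CPSF6 (33.5%), RBM10 (9.46%) and RBM22 (2.80%) were also above, and that of GRB2 (17.4%) was below.

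The PRIMIRNA windows of CPSF5 had a median enrichment of 3.84, against 2.81 for all CPSF5 windows. The medians were 3.15 against 2.93 for RNPS1, 3.02 against 3.38 for GRB2, 2.55 against 2.51 for CPSF6, 2.54 against 2.77 for RBM10 and 2.22 against 2.81 for EIF4B. With only 3 windows each, they were 3.40 against 2.39 for MBNL2 and 2.71 against 2.12 for RBM22. At a q-value of at most 0.05, 61 of the 78 CPSF5 windows stayed, or 78.2% against 63.0% of the whole table. The share was 43.1% against 49.7% for CPSF6 (25 of 58), 50.8% against 50.9% for GRB2 (32 of 63), 14.3% against 31.5% for RBM10 (2 of 14) and 47.1% against 69.7% for EIF4B (8 of 17). RNPS1 kept 15 of 30, against 63.1%, MBNL2 2 of 3 and RBM22 1 of 3. Input reads were few: the median was 3 for CPSF5 and 2 for GRB2, and 13 CPSF5 and 16 GRB2 windows had none.

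The label PRIMIRNA is not defined in the sources used here, and its meaning was read from positions. Against RefSeq, 200 of the 201 windows lay within 500 nt of the microRNA hairpin they are named for, 105 upstream and 95 downstream, and 48 touched the hairpin's end. Another annotation placed 131 of them (65.2%) in an intron as well. For CPSF5, 45 windows were upstream and 33 downstream. The 12 windows on either side with an end within 100 nt of the hairpin held 1453 IP reads upstream and 1325 downstream, and 22 of these windows touched it. For CPSF6, 11 upstream and 8 downstream windows this near to the hairpin held 664 and 529 reads, and 17 of them touched it. For GRB2, 9 and 5 windows this near to the hairpin held 431 and 299 reads, and 7 windows at each far end held 256 and 371. Of the 78 CPSF5 PRIMIRNA windows, 57 (73.1%) had a CPSF5 window of another type, such as an intron, within 1000 nt on the same strand, and this was 46.6% for CPSF6 and 55.6% for GRB2.

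**Figure D4:**
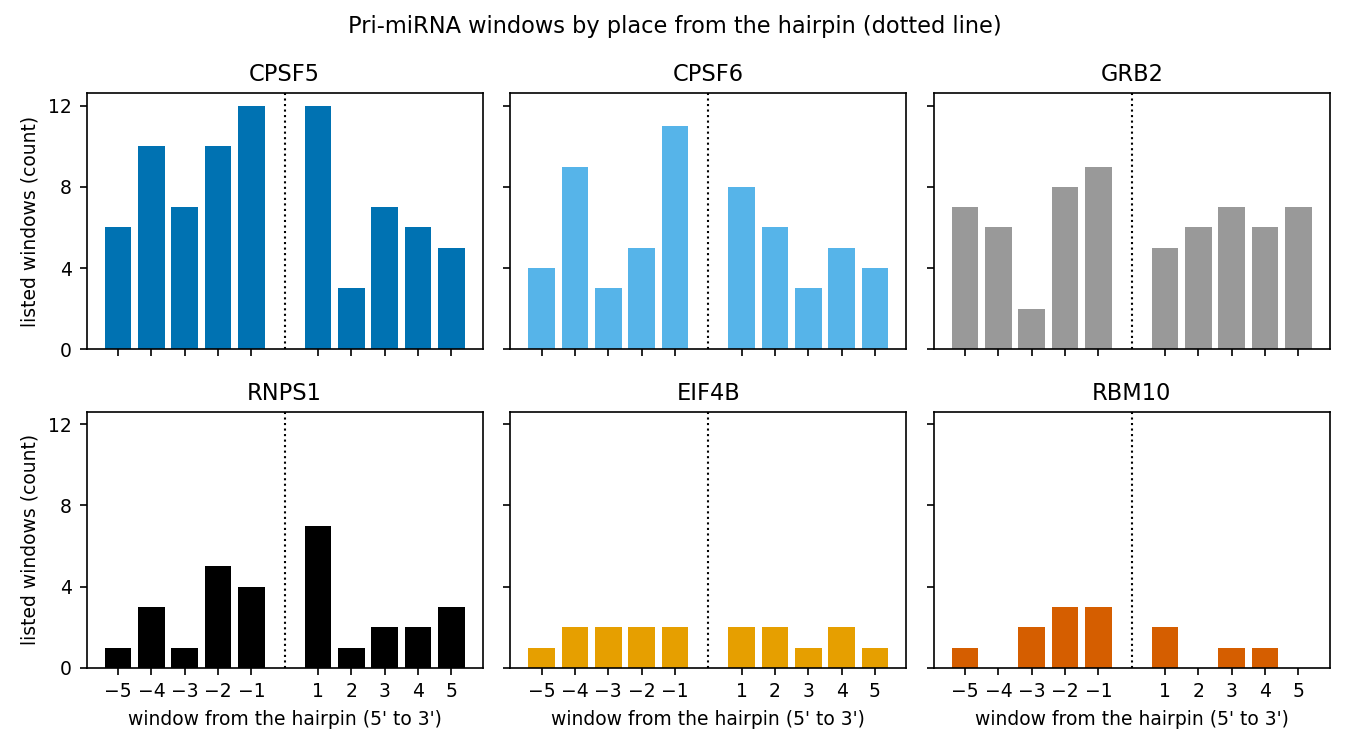
Number of listed PRIMIRNA windows for 6 proteins at each of the 5 window places on the 5' side (negative) and the 3' side (positive) of the microRNA hairpin, which the dotted line marks. CPSF5 has 12 windows at the place nearest the hairpin on either side, and GRB2 has between 2 and 9 at every place.

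By locus, CPSF5 was listed at 19 microRNA loci, 17 with more than 1 window and 9 with at least 5. Of these loci, 8 had windows on both hairpin and flank, 9 on flanks only and 2 on the hairpin only. CPSF6 was listed at more loci, 28, but only 3 had at least 5 windows. GRB2 was listed at 16 loci, 15 of them in no other table, and 98.1% of all GRB2 windows were likewise in no other table. RNPS1 was listed at 19 loci and EIF4B at 9.

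The let-7i locus, an intergenic member of the let-7 family, had 7 CPSF5 flank windows and the hairpin, with 1622 IP and 35 input reads in all. From the 5' side the flank windows had 203, 123, 131, 451 and 251 IP reads, with lower-replicate enrichments of 4.82, 3.93, 4.44, 4.51 and 5.91. The hairpin had 66 reads (2.84 and 5.72), and the 3' flank windows had 264 (5.41) and 133 reads (6.74 and 7.35), the last with no input read. CPSF6 was listed at 3 of the 5' windows and at the hairpin, with 273 IP and 30 input reads and enrichments of 1.43 to 2.15. The other let-7 member, miR-98, in HUWE1, had 7 CPSF5 flank windows and the hairpin (405 IP and 28 input reads), with enrichments of 3.34 to 4.61, and was in no other table.

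The miR-301a locus in SKA2 held the highest PRIMIRNA value of all tables. The CPSF5 window directly 3' of the hairpin (chromosome 17, 59151036 to 59151135) had 160 IP reads and none in the input, with enrichments of 7.62 and 7.88. The window directly 5' of it had 320 and 7 reads (5.91 and 6.51), and the hairpin between them had 28 and 2 reads (3.04 and 5.63). Over 10 windows CPSF5 had 1025 IP and 31 input reads. CPSF6 had a single window, directly 5' of the hairpin, with 17 and 4 reads (1.71 and 3.63). At miR-130b, which shares the seed of miR-301a, CPSF5 had 5 flank windows with 129 IP and 3 input reads and enrichments of at least 3.06.

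At the miR-15/16 family loci, CPSF5 had 6 flank windows and the hairpin of miR-16-1 in DLEU2 (564 IP and 41 input reads). The 2 windows 3' of the hairpin had 208 and 53 reads (5.66 and 5.80), and the 3 windows farther downstream had 1.59, 2.06 and 1.54. miR-15b in SMC4 had 2 CPSF5 flank windows (58 IP and 8 input reads) and 1 for CPSF6.

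The windows around miR-27b in AOPEP also cover its cluster mates. CPSF5 was listed at all 10 flank windows and the hairpin, with 689 IP and 22 input reads and enrichments of 2.19 to 6.29. The window at 95085245 to 95085344 on chromosome 9 contains mature miR-23b-3p (95085265 to 95085287) and had 60 IP reads and 1 input read (5.58 and 5.82). CPSF6 had 6 flank windows there with 1.55 to 3.75, and RNPS1 2 with 9 and 13 reads. CPSF5 also had 7 windows at miR-186 in ZRANB2 (940 IP and 106 input reads, 2.37 to 4.12), 5 at miR-218-1 in SLIT2 (2.01 to 3.79) and 3 at miR-183 (54 IP and 3 input reads). RBM10 had 4 windows at miR-218-1 with 162 IP and 12 input reads (2.18 to 2.95), and CPSF6 1.

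**Figure D5:**
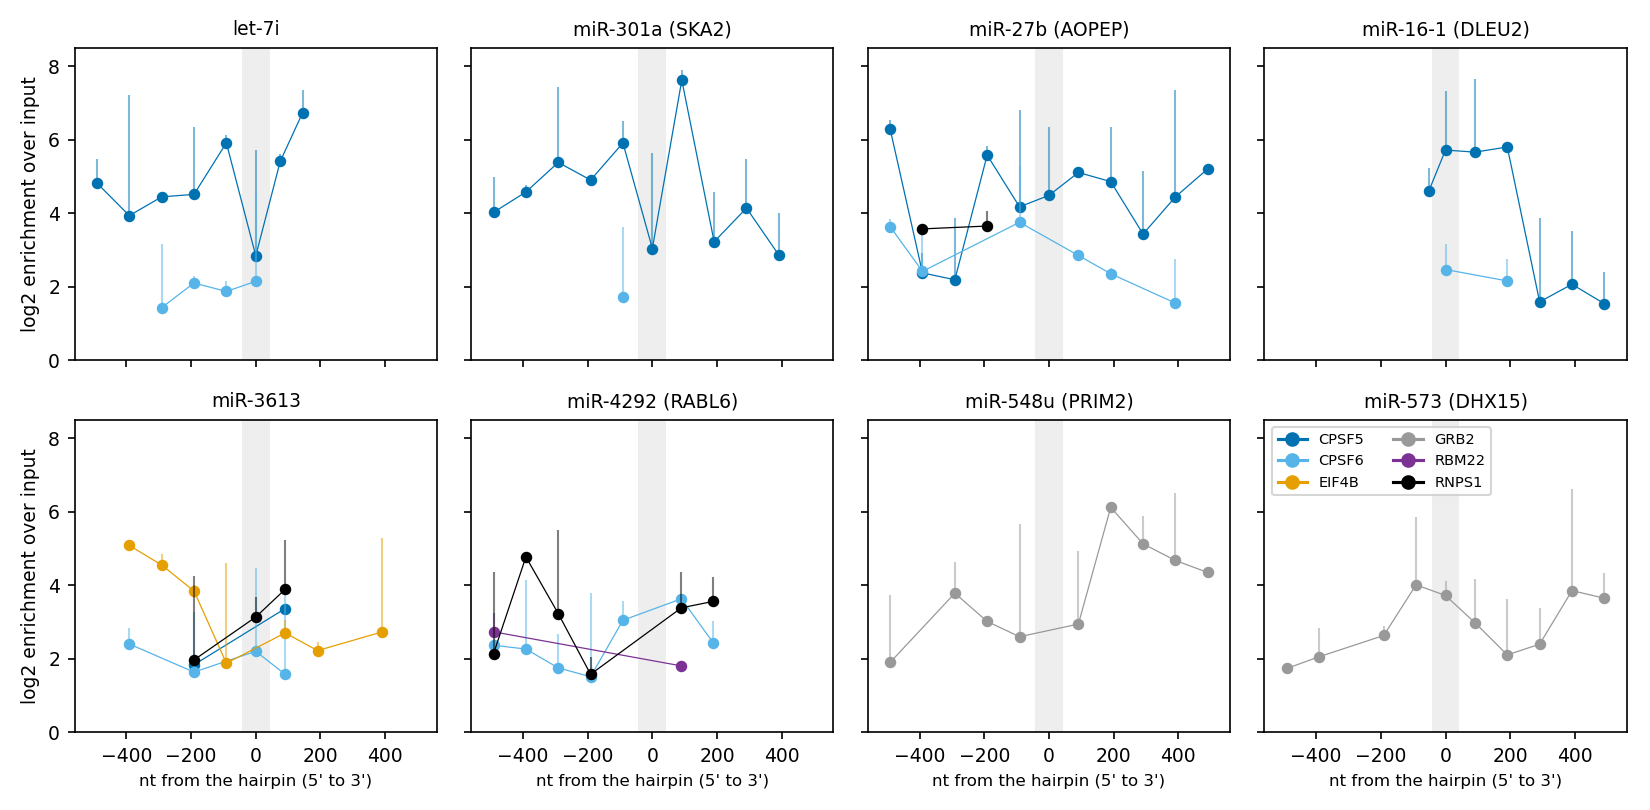
Log2 enrichment over input of listed windows at 8 microRNA loci, with points at the lower replicate, vertical lines reaching to the higher replicate, colours for proteins, and the distance in nt from the hairpin (grey band, drawn at a fixed width) on the x axis. CPSF5 is above CPSF6 in each window where both are listed at let-7i, miR-301a and miR-16-1, EIF4B is highest upstream of miR-3613, and only GRB2 is listed at miR-548u and miR-573.

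Several loci were shared by other combinations of proteins. The flanks of miR-3176, in CAPN15 on chromosome 16, were listed for 6 proteins. EIF4B had 6 flank windows there (285 IP and 30 input reads), CPSF5 5 (215 and 48), RBM10 3 (237 and 10), and CPSF6, GRB2 and RNPS1 2 each. The window directly 5' of the hairpin (543177 to 543276) was in all 6 tables, with enrichments of 3.44 for EIF4B, 3.24 for RNPS1, 2.50 for RBM10, 2.27 for CPSF5, 1.83 for GRB2 and 1.66 for CPSF6. miR-3613 was listed for 4 proteins, with the largest values for EIF4B in the 3 windows farther upstream (171, 206 and 276 IP reads, enrichments 3.85, 4.55 and 5.09). miR-6511b-1 was listed for CPSF6, MBNL2, RBM22 and RNPS1, with RNPS1 holding 187 IP and 5 input reads in 3 windows.

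CPSF6 and RNPS1 shared 19 PRIMIRNA windows, which is 32.8% of the CPSF6 and 63.3% of the RNPS1 ones. Over all windows these tables shared 56.3% and 57.3%. CPSF5 and CPSF6 shared 20, or 25.6% and 34.5%, against 14.1% and 3.52% over all windows. Of the CPSF6 and RNPS1 overlap, 6 windows lay at miR-4292 in RABL6 and 4 at miR-941 in DNAJC5. At miR-4292 CPSF6 had 7 windows (1037 IP and 85 input reads, 1.51 to 3.63) and RNPS1 6 (277 and 12 reads, 1.58 to 4.77). At miR-941 CPSF6 had 8 PRIMIRNA windows and the hairpin (740 and 44 reads) and RNPS1 4 PRIMIRNA windows (199 and 5 reads). Not all of these are plain flanks, since other miR-941 genes lie in the same stretch. The CPSF6 window at 63919577 to 63919676 overlaps the hairpin of MIR941-3 (3.69), and that at 63919877 to 63919976 the hairpin of MIR941-5 (4.23). The split of reads between these copies is uncertain. The CPSF6 window with the highest PRIMIRNA value was at miR-545 and miR-374a in FTX (72 IP reads and 1 input read, 5.07 and 6.12). CPSF5 had 4 windows at that locus with 2.68 to 4.80.

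GRB2 windows covered whole stretches around hairpins that no other table listed. miR-1207 had all 10 flank windows and the hairpin (795 IP and 49 input reads, 1.72 to 4.63). miR-573, in an intron of DHX15, had 9 flank windows and the hairpin (614 and 36 reads, 1.74 to 4.01), and miR-548u, in PRIM2, 9 flank windows (532 and 15 reads, 1.90 to 6.12). Further runs lay at miR-3975 in GALNT1 and miR-2467 with 7 windows each, and at miR-562 with 5 flank windows. The miR-573 hairpin had 3.72 and 4.11, below the 4.01 and 5.85 of the window directly 5' of it, and the miR-562 hairpin had 4.28, above the 4.22 of the highest flank window.

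Sharing between tables depended on how the type was taken. Of the 219 EXON_SMALL windows, 81 (37.0%) were listed for more than 1 protein, and of the 201 PRIMIRNA windows 49 (24.4%), against 22.3% of all distinct windows. The 285555 windows listed for GRB2 only lower this last share. Without them it was not computed, so more sharing than the background is not shown for either type. With the type taken from any annotation, the small-RNA share was the same and the PRIMIRNA share rose to 38.9% (181 of 465). CPSF6 and RNPS1 shared 30 small-RNA windows, 58.8% and 43.5% of each, against 56.3% and 57.3% over all windows. CPSF6 and EIF4B shared 24, or 47.1% and 50.0%, against 14.5% and 32.8%, and most of these were mitochondrial rRNA. Small-RNA windows listed for a single protein numbered 28 of 54 for RBM22 (51.9%, against 17.7% of its whole table), 27 of 51 for CPSF5 (52.9% against 70.2%), 24 of 69 for RNPS1 (34.8% against 30.5%), 22 of 46 for RBM10 (47.8% against 53.6%) and 12 of 12 for GRB2 (against 98.1%). Among the PRIMIRNA windows these were 61 of 63 for GRB2 (96.8% against 98.1%) and 51 of 78 for CPSF5 (65.4% against 70.2%), both near their background. Window composition also differed: the median GC content of PRIMIRNA windows was 44.5% for CPSF5 and 43.0% for GRB2, and 68.0% for EIF4B, where the medians of the whole tables were 35.8%, 41.0% and 61.8%.

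Some hairpins carry a different leading type and are not members. The miR-17-92 hairpins, in the noncoding host gene MIR17HG on chromosome 13, are typed as exons of an mRNA gene. Strong CPSF5 windows overlapped them in part. The window at 91350664 to 91350759 overlaps the miR-17 and miR-18a hairpins and had 1818 IP and 34 input reads (6.61 and 6.69). It begins within mature miR-17-3p (91350655 to 91350676). The window at 91350953 to 91351049 begins within mature miR-19a-3p (91350939 to 91350961) and had 1433 and 19 reads (6.84 and 7.16). CPSF6 had 133 and 30 reads (2.41 and 2.45) and 95 and 22 reads (2.42 and 3.47) in the same windows. The tetramer UGUA, the known binding motif of CPSF5, was searched for on the RNA strand of the hairpin sequences. It occurred in 7 of 17 hairpins of CPSF5 loci (41.2%, median length 88 nt), 7 of 27 of CPSF6 loci (25.9%) and 384 of all 1562 RefSeq hairpins (24.6%, median length 80 nt). Whether these shares differ was not tested, and the CPSF5 and CPSF6 loci are few. At 9 of the 19 CPSF5 loci only flank windows were listed, and the flanks could not be searched without genome sequence.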

How the data were processed

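Members and gene lists were chosen with earlier results of these data known. Window tables for 9 proteins were used as deposited. Coordinates are on hg38, which the submitters' processing notes name. Neither aligner nor window caller nor annotation version is given in the sources used here. IP and input read counts per window were summed over replicates by the authors. The authors deposited the log2 enrichment as lower, mean and higher replicate values, and p-values and q-values as their lowest and highest, and every listed window has a q-value below 0.2. The authors deposited a GC fraction for each window, given here in percent. No test was made, since no value per library was used. Windows were united by name, classed by gene name, and placed against RefSeq GRCh38.p14 hairpins. A window was put at the 5' or 3' end by its midpoint in the RefSeq gene (below 0.45 or above 0.55 of its length), or by its number in U2 and U6. Percentiles rank the lower-replicate log2 enrichment within a table, with 100 the highest. Genes were named by a rule: the 12 listed for most proteins per type, per protein and type the 2 highest windows with at least 20 IP reads and the 2 genes with most IP reads, and members of lists of snRNAs, 7SK, 7SL, snoRNAs, scaRNAs, Y, vault and telomerase RNAs and microRNA clusters. Some genes picked by this rule are not described, and other genes in the text were chosen after their values were seen. Scripts used Python 3.11.15, numpy 2.4.6, pandas 2.3.3, scipy 1.17.1 and matplotlib 3.10.9, and were tested on simulated tables. Alternatives are in the closing section.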

Additional observations from a re-analysis of the deposited data

How the results depend on the processing

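No paired analysis was possible because the tables hold sums or extremes over the replicates, and leaving out a replicate was not run for the same reason. Among the recomputed values, 112 stayed within the interval of a share, the gap between replicates of a median or 1.5 times a count, and 34 moved further. With a q-value of at most 0.05, PRIMIRNA windows fell to 127, of which 18 were in more than 1 table. The EXON_SMALL share became 0.0896% for MBNL2, 0.367% for RBM10 and 1.46% for RBM22, and the PRIMIRNA share of RBM10 0.0223%. Medians became 2.79 for MBNL2 small-RNA windows, and 3.64 for EIF4B and 3.91 for RBM10 PRIMIRNA windows. With the type taken from any annotation of a window, PRIMIRNA windows numbered 465, with 181 shared, and their share was 0.366% for CPSF5, 0.100% for CPSF6, 0.140% for EIF4B, 0.0278% for GRB2, 0.399% for LGALS3, 0.126% for MBNL2, 0.154% for RBM10, 0.150% for RBM22 and 0.0982% for RNPS1, with an MBNL2 median of 2.08. With windows within 100 nt counted as shared, 80 PRIMIRNA windows were shared. With adjoining windows merged, the EXON_SMALL share was 0.254% for CPSF5 and 0.0107% for GRB2, and the PRIMIRNA share of GRB2 0.0331%. An alternative chosen after seeing the data counted windows of any type over a RefSeq hairpin: 85 for CPSF5, 101 for CPSF6, 64 for EIF4B, 26 for GRB2, 2 for LGALS3, 19 for MBNL2, 31 for RBM10, 8 for RBM22 and 82 for RNPS1. A minimum of 20 IP reads moved none of these values by that much. Few input reads limit the precision of single enrichments.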
